A study of Mus musculus with 6 samples.

Results

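Extracellular ATP and adenosine handling was followed through 7 genes, chosen by name from the 25759 gene identifiers of the deposited table: Entpd1, Nt5e, Ada, Adora2a, Dpp4, Cd38 and P2rx7. All 7 were found, and all 7 had a mean of at least 1 FPKM (fragment counts divided by transcript length and library depth), the level above which genes were tested. ATP that leaves a cell is a danger signal for lymphocytes, whereas adenosine restrains them. CD39, the product of Entpd1, strips ATP and ADP to AMP on the cell surface, and CD73, the product of Nt5e, turns AMP into adenosine, so that regulatory T cells that carry both can make a suppressive ligand out of an inflammatory one. Adora2a encodes the main adenosine receptor of T cells, which signals through cAMP, adenosine deaminase (Ada) destroys adenosine, and P2rx7 encodes an ATP-gated channel that can kill T cells.

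The series compared adaptive regulatory T cells (aTreg) of 2 genotypes, with 3 libraries each. The wild type (WT) group came from normal B6 mice with a Foxp3GFP reporter transgene, and the BMPR1a-deficient group came from BMPR/CD4cre mice with the same reporter. All were C57BL/6 and 8 to 12 weeks old. Cells of lymph nodes and spleen were cultured for 3 days with IL-2 (10 ng/ml), the mitogen ConA (2 µg/ml) and, in both groups alike, TGF-beta (3 ng/ml), and CD4+Foxp3GFP+ cells were sorted. BMPR1a binds bone morphogenetic proteins and signals through SMAD proteins, and Cre under Cd4 control acts in all T cells that have passed through a CD4-expressing stage, not only in Foxp3+ cells. The WT labels name no Cre. The sort does not set apart cells that already had Foxp3 before the culture. TGF-beta is itself known to induce CD73 on CD4 T cells, and every culture received it. Nothing in the labels ties a library to its own animal or culture, so the p-values speak only of how far these libraries spread, and that spread may be technical.

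The libraries held roughly 30000000 to 38000000 fragments each, as judged from the smallest steps in the values. At that depth the rarest of the 7 genes, P2rx7, rested on roughly 120 to 350 fragments per library and Entpd1 on roughly 2000 to 6000. Bmpr1a was at 1.39, 2.34 and 1.31 FPKM in WT and 0.439, 0.720 and 0.691 in the deficient libraries (log2 fold change -0.71, limma adjusted p = 0.183). BMPR1a-deficient replicate 1 stood apart, with a summed level of the 13 mitochondrially encoded protein genes at 10.3% of the WT mean, against 86.2% and 86.3% in replicates 2 and 3. Across all 13413 genes tested, 100 were higher and 43 lower in BMPR1a-deficient aTreg, so 69.9% of calls were higher, against 60.3% with median-of-ratios scaling and 55.7% with quantile normalization.

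Defining T cell genes were abundant in all 6 libraries, with Cd4 between 329 and 436 FPKM and Foxp3 between 49.4 and 96.9. The summed T cell markers spanned 1841 to 1938 FPKM in WT and 1851 to 2105 in deficient libraries, and the regulatory T cell markers 511 to 573 and 456 to 649. Markers of other cells were present too, with sums below those of the T cell and regulatory T cell lists. The 7 B cell genes summed to 30.0 to 57.9 FPKM in WT and 40.2 to 56.1 in deficient libraries, and the 7 macrophage and monocyte genes to 25.1 to 120 and 13.7 to 102. The 6 granulocyte and mast cell genes summed to 3.17 to 26.2 and 7.53 to 131 FPKM, the CD8 genes to 32.03 to 41.8 and 37.9 to 68.4, and the plasma cell genes to 23.0 to 27.6 and 19.9 to 31.6. Single myeloid genes reached the range of Foxp3, with Lyz2 at 84.5 FPKM in WT replicate 1 and S100a8 at 67.1 in deficient replicate 3. The NK list summed to 5.61 to 9.36 and 3.09 to 8.36 FPKM and the stromal and endothelial list to 43.0 to 57.1 and 40.0 to 53.0, nearly all of it Pecam1. Each dendritic cell gene, erythroid or platelet gene and gamma delta T cell gene was below 1 FPKM in every library. The groups overlapped in each of these sums apart from the gamma delta list (0.00803 to 0.505 and 0.758 to 0.937 FPKM), and no marker list had a gene at 0 in all 6 libraries. Single markers did separate the groups: of 57, 7 lay higher and 3 lower without overlap, as did 15.9% and 10.4% of all tested genes, and no marker abundant enough to be tested passed in limma. The 57 include markers below the level tested, which these percentages do not cover, and Klrb1c, Sox13 and Klre1 of those without overlap are among them. Among the 6 regulatory T cell markers, Ikzf2 (21.4 to 32.9 FPKM in WT and 42.5 to 51.1 in deficient libraries), Tnfrsf18 (127 to 146 and 191 to 199.8) and Lrrc32 (4.79 to 5.96 and 8.15 to 13.1) lay higher and Ctla4 (238 to 275 and 103 to 204) lower. Cd8a lay at 8.80 to 11.7 FPKM in WT and 13.8 to 29.1 in deficient libraries.

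None of the 7 genes passed the threshold of an adjusted p under 0.05 in limma, in either direction, where 0.746% of all tested genes were called higher and 0.321% lower. At an unadjusted p under 0.05, 1 gene was higher (Entpd1) and 1 lower (Adora2a), against 9.29% and 5.87% of all tested genes. In the same pair of genes the groups did not overlap, with Entpd1 above and Adora2a below, as happened upward in 15.9% and downward in 10.4% of all tested genes. The median log2 fold change of the 7 was 0.10, against 0.04 over all genes tested. Ordered by limma p among the 13413 genes, Adora2a had rank 258 and Entpd1 rank 317.

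**Figure D1:**
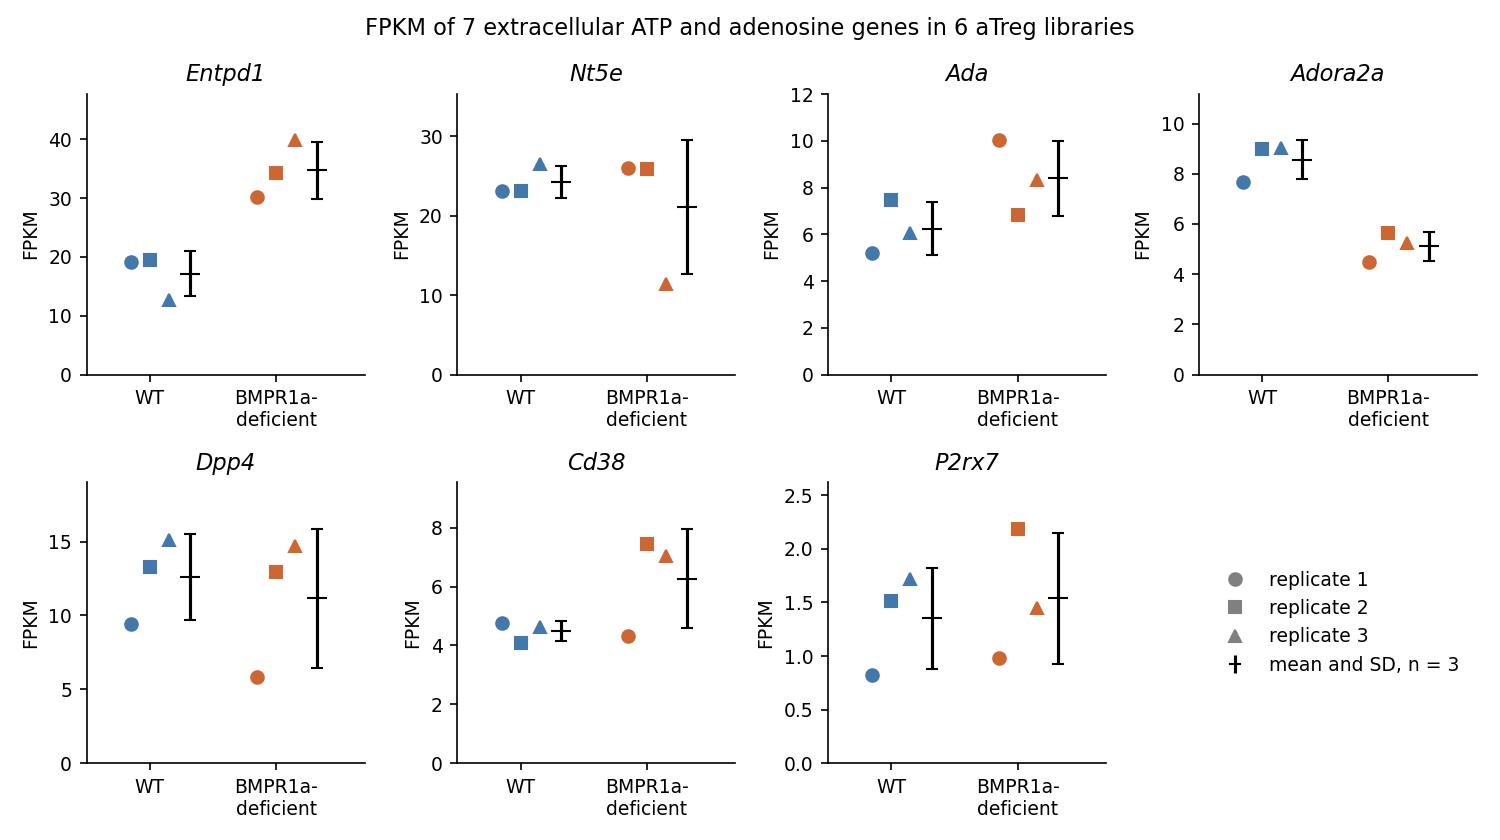
FPKM of each of the 7 genes in the 3 WT (blue) and 3 BMPR1a-deficient (orange) libraries, with one panel per gene, marker shape for the replicate number and a black bar for mean and SD (n = 3). Entpd1 lies at 30.1 to 39.8 FPKM in deficient libraries and at 12.8 to 19.5 in WT, Adora2a lies at 4.49 to 5.62 and 7.66 to 9.03, and in the other panels the groups overlap.

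Entpd1 (ENSMUSG00000048120, GRCm38 chromosome 19, 40612366 to 40741602, plus strand) encodes CD39, which starts the breakdown of extracellular ATP. Its level was 19.2, 19.5 and 12.8 FPKM in WT and 30.1, 34.3 and 39.8 FPKM in the deficient libraries. Each deficient library was thus above each WT library, and the deficient mean was 2.02 times the WT mean (17.2 ± 3.82 against 34.7 ± 4.85 FPKM, SD, n = 3 per group). The log2 fold change was 0.99 (SE 0.195, 95% confidence interval 0.52 to 1.47), with a limma adjusted p of 0.0932. An exact two-sided permutation test of the 6 values gave p = 0.1, the smallest that 3 against 3 libraries allow. With sample weights from limma, which count deviating libraries less, Entpd1 passed (limma adjusted p = 0.0159). That weighting called 1240 of all 13413 tested genes, against 143 without it.

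CD39 is also carried by macrophages and B cells, and regulatory T cells carry it too, so the markers of all 3 are set beside Entpd1. The macrophage and monocyte sum was 120, 25.1 and 51.2 FPKM in the WT libraries and 13.7, 51.0 and 102 in the deficient ones. Within the deficient libraries Entpd1 and this sum were both lowest in replicate 1 and highest in replicate 3. In WT Entpd1 was lowest in replicate 3 and this sum in replicate 2. The granulocyte and mast cell sum had the same lowest and highest library as the macrophage sum within each group. Over all 6 libraries the macrophage sum was lowest in deficient replicate 1 (Entpd1 at 30.1 FPKM) and highest in WT replicate 1 (Entpd1 at 19.2 FPKM). The B cell sum was 30.0, 44.4 and 57.9 FPKM in WT and 40.2, 56.1 and 51.4 in deficient libraries, with overlap. Of the 6 regulatory T cell markers, Ikzf2, Tnfrsf18 and Lrrc32 lay above WT in every deficient library, as Entpd1 did. Ctla4 lay below WT in every deficient library, and the groups overlapped in Foxp3 and Il2ra and in the sum of the list. The part of any of these cells in the Entpd1 value was not tested. In bulk libraries such as these, fewer cells that carry a transcript and less transcript per cell cannot be told apart.

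RefSeq (GRCm38.p6) lists 2 starts for Entpd1, 47.4 kb apart, and gene-level FPKM do not tell which one was used. The sequence in front of each is shown because Entpd1 has the largest log2 fold change of the 7 genes, with capitals for CAGAC (the short box bound by SMAD proteins, which carry BMP and TGF-beta signals), TGACG (a partial cAMP response element) and CCAAT (a common promoter box), each on either strand.
Entpd1 upstream start, chr19:40612234-40612365, plus strand, 132 bases: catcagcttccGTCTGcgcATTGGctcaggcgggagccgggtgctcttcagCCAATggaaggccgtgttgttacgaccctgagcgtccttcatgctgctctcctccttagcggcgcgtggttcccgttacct
Entpd1 downstream start, chr19:40659520-40659769, plus strand, 250 bases: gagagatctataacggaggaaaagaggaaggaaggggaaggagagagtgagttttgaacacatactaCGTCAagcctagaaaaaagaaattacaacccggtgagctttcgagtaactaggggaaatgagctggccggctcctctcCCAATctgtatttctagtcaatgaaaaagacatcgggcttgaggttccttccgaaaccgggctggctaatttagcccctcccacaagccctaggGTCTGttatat

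The upstream stretch is the whole gap between Entpd1 and Tctn3, a gene of the ciliary base that is read from the other strand. It holds 1 CAGAC and 2 CCAAT boxes, with CAGAC in 24.7% and CCAAT in 22.6% of all 32851 RefSeq promoter windows cut to the same 132 bases. The downstream stretch holds 1 match to each of the 3 motifs, and of all windows of 250 bases 42.2% hold CAGAC, 17.8% TGACG and 33.8% CCAAT. Such matches describe letters in a window and show no binding. GGCGCC (a GC-rich SMAD site) and TGACGTCA (the full cAMP response element) were also searched, with 0 matches in the 250 bases before either start. Of all windows of 250 bases, 9.6% hold GGCGCC and 1.5% hold TGACGTCA. Tctn3 was at 3.41, 3.10 and 3.38 FPKM in WT and 3.88, 3.89 and 4.29 in deficient libraries (log2 fold change 0.22, SE 0.0976, limma adjusted p = 0.353). Its groups did not overlap either, as happened upward in 15.9% of all tested genes. RefSeq windows were found for 6 of the 7 genes, Adora2a not among them. CAGAC occurred within 250 bases of at least 1 start of Entpd1, Nt5e, Ada, Cd38 and P2rx7, but not of Dpp4. The windows of Nt5e and Cd38 lie wholly within annotated exons. Entpd1 and P2rx7 have 2 windows each, so the 42.2% per window is not a matching background for them.

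Nt5e (ENSMUSG00000032420, chromosome 9, 88327197 to 88372092) encodes CD73, the enzyme that completes adenosine production from AMP. It was at 23.0, 23.1 and 26.5 FPKM in WT and 26.0, 25.8 and 11.4 in the deficient libraries. Deficient replicates 1 and 2 lay inside the WT range, and replicate 3 lay at 49.5% of the lowest of the other 5 libraries. The log2 fold change was -0.28 (SE 0.318, 95% confidence interval -1.05 to 0.50, limma adjusted p = 0.684), and it turned to 0.10 without replicate 3. The granulocyte and mast cell sum was also highest in that library, at 131 FPKM, and Mns1, Gsta4 and Myo6, which lie on the same chromosome, were lowest in that library too. The part of either in the Nt5e value was not tested.

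The order of the pair, compared per length and within libraries, differed between the groups. In WT, Nt5e lay above Entpd1 in all 3 libraries, whereas in BMPR1a-deficient aTreg Entpd1 lay above Nt5e in all 3. The Entpd1 to Nt5e ratio was 0.834, 0.846 and 0.481 in WT and 1.16, 1.33 and 3.49 in deficient libraries, so it crossed 1 between the groups, with the widest ratio in the library of low Nt5e. The exact two-sided permutation test on the log2 ratios gave p = 0.1, its smallest possible value (0.167 after Benjamini-Hochberg adjustment over the 5 ratios computed). This ratio and the others given here were chosen after their values were seen.

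Adenosine leaves the extracellular space by deamination or by uptake. Ada (ENSMUSG00000017697, chromosome 2, 163726584 to 163750239) was at 5.21, 7.47 and 6.06 FPKM in WT and 10.0, 6.83 and 8.35 in the deficient libraries. Deficient replicate 2 lay within the WT range and the others lay above it. The log2 fold change of Ada was 0.37 (SE 0.176, 95% confidence interval -0.06 to 0.80, limma adjusted p = 0.378).

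Adk encodes adenosine kinase, the competing route that phosphorylates adenosine inside the cell. It was at 24.6, 44.4 and 40.8 FPKM in WT and 17.8, 24.6 and 27.1 in deficient libraries (log2 fold change -0.61, SE 0.264, limma adjusted p = 0.348), and it was picked after its values were seen. Relative to Ada in the same library, Adk was at 4.73, 5.94 and 6.73 times in WT and 1.78, 3.60 and 3.24 times in deficient libraries. Adk therefore exceeded Ada in all 6 libraries, by a smaller factor in each deficient library than in any WT library (exact two-sided permutation p = 0.1, the smallest possible, and 0.167 adjusted over the 5 ratios).

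Dpp4 (ENSMUSG00000035000, chromosome 2, 62330073 to 62412231) encodes CD26, a surface peptidase that anchors adenosine deaminase in human cells. Its level was 9.42, 13.3 and 15.1 FPKM in WT and 5.84, 12.9 and 14.7 in the deficient libraries. The groups overlapped, and the lowest value came from deficient replicate 1, the library with few mitochondrial transcripts. The log2 fold change was -0.23 (SE 0.349, 95% confidence interval -1.08 to 0.63, limma adjusted p = 0.764) and turned to 0.15 (0.145) without that library.

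**Figure D2:**
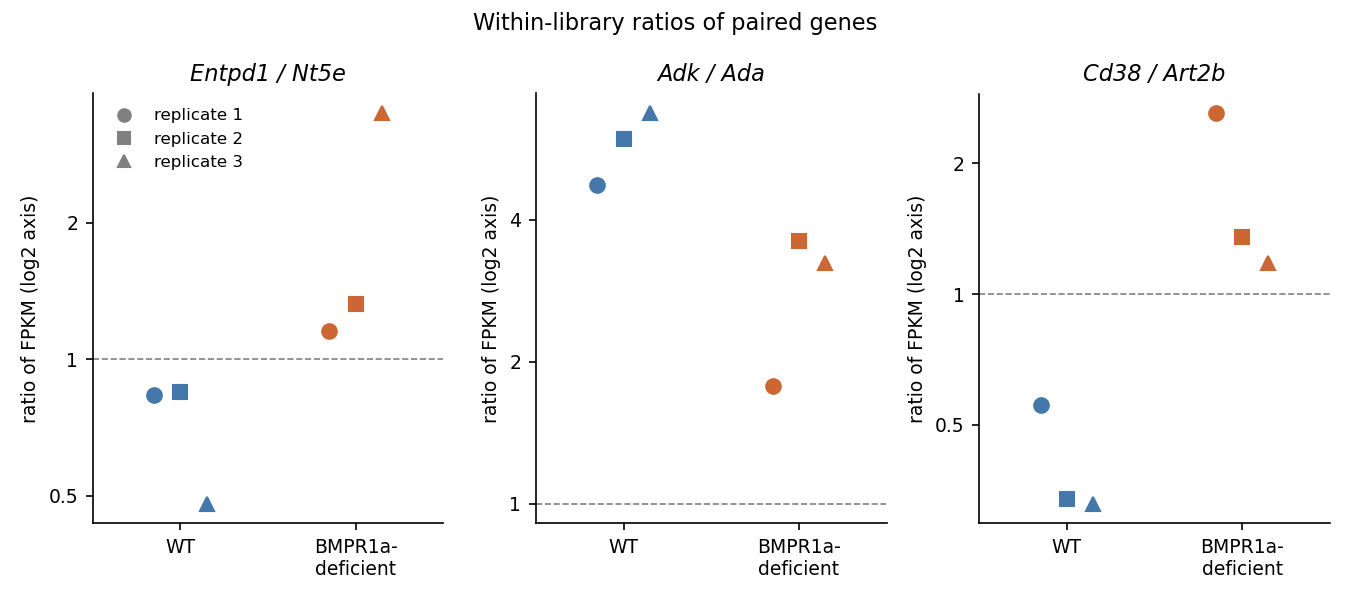
Ratios of FPKM within each library for Entpd1 to Nt5e, Adk to Ada and Cd38 to Art2b on log2 axes, with WT in blue, BMPR1a-deficient in orange and a dashed line at 1. The groups do not overlap in any of the panels, unlike in the ratios of Adora2a to Adora2b and P2rx4 to P2rx7, which are not drawn, and Entpd1 to Nt5e and Cd38 to Art2b cross 1 between them.

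Adora2a (ENSMUSG00000020178, chromosome 10, 75316877 to 75334784) encodes the adenosine receptor through which CD73 products act on T cells. It was at 7.66, 8.98 and 9.03 FPKM in WT and 4.49, 5.62 and 5.25 in the deficient libraries. Every deficient library was below every WT library, with a deficient mean at 59.9% of that in WT (8.56 ± 0.774 against 5.12 ± 0.578 FPKM, SD, n = 3). The log2 fold change was -0.64 (SE 0.117, 95% confidence interval -0.93 to -0.36, limma adjusted p = 0.0767). Adora2a missed the threshold as the values were deposited but passed it with median-of-ratios scaling (limma adjusted p = 0.0468), quantile normalization (0.0362) and sample weights (0.0148). These settings called 141, 158 and 1240 of all 13413 tested genes, against 143 with the values as deposited.

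The other adenosine receptors were scarce. Adora2b, a receptor of lower affinity, lay between 0.0456 and 0.507 FPKM in the 6 libraries and Adora3 between 0.0271 and 0.119, both below the level tested, and Adora3 was added after its values were seen. Adora2a was between 10.4 and 98.4 times the level of Adora2b in the same library, a ratio in which the groups overlapped (exact two-sided permutation p = 0.9). Adora1 was not analysed here. The steps behind the receptor were described with a list of 14 genes for cAMP production, breakdown and response, 13 of them tested.

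In that list 1 gene was called higher and 0 lower, while at an unadjusted p under 0.05 limma had 1 higher and 5 lower of the 13, against 9.29% and 5.87% of all tested genes. Pde4a, a phosphodiesterase that destroys cAMP, rose in the deficient libraries to 9.17, 8.07 and 7.32 FPKM, against 2.71, 0.999 and 1.09 FPKM in WT (log2 fold change 1.88, SE 0.260, limma adjusted p = 0.0410). The call was lost in 10 of the 16 alternatives that could test it, 5 of them with a library left out (limma adjusted p between 0.0815 and 0.205, and 0.0164 without WT replicate 1), and with a replicate block (0.107). Adcy6, an adenylyl cyclase, was at 8.39, 7.58 and 9.41 FPKM in WT and 3.64, 5.17 and 4.41 in deficient libraries (log2 fold change -0.81, limma adjusted p = 0.0706). Pde3b, another cAMP phosphodiesterase, was at 32.6, 33.6 and 40.0 FPKM and 8.89, 19.3 and 22.7 (-1.11, limma adjusted p = 0.218), the opposite direction to Pde4a. The list's other phosphodiesterase genes also had lower deficient means. Pde4b was at 23.2 ± 3.43 FPKM in WT and 15.7 ± 3.24 in deficient libraries (SD, n = 3, limma adjusted p = 0.276). Pde4d was at 48.7 ± 1.92 and 42.2 ± 5.43 (limma adjusted p = 0.461). Adcy6, Pde3b, Pde4b and Pde4d were picked after their values were seen.

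P2rx7 (ENSMUSG00000029468, chromosome 5, 122643911 to 122691432) encodes P2X7, the low-affinity ATP channel whose opening can end in T cell death. It had the lowest level of the 7, at 0.823, 1.52 and 1.72 FPKM in WT and 0.982, 2.19 and 1.44 in the deficient libraries. The groups overlapped across most of their range (log2 fold change 0.10, SE 0.244, 95% confidence interval -0.49 to 0.70, limma adjusted p = 0.853). The interval admits a difference of either sign on this scale, which understates changes at such low levels. Its sign turned without WT replicate 1 (-0.07) and without deficient replicate 2 (-0.08).

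B cells also carry P2X7, and their markers are set beside it. The B cell sum was lowest in replicate 1 of either group, as P2rx7 was. Whether B cell RNA carried part of the P2rx7 value was not tested. P2rx4, a related ATP channel whose gene lies 16.1 kb from P2rx7, was at 15.2 to 20.1 FPKM and exceeded P2rx7 8.92 to 24.4 times per library, with overlap of the groups (log2 fold change of P2rx4 -0.07, limma adjusted p = 0.788). The other P2X genes stayed below the level tested.

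Cd38 (ENSMUSG00000029084, chromosome 5, 43868553 to 43912375) encodes a surface enzyme that consumes NAD, the substrate with which ART2 enzymes ADP-ribosylate and open P2X7 on mouse T cells. It was at 4.76, 4.10 and 4.63 FPKM in WT and 4.33, 7.44 and 7.04 in the deficient libraries. Deficient replicates 2 and 3 lay above every WT library, and replicate 1 lay within the WT range. The log2 fold change was 0.38 (SE 0.195, 95% confidence interval -0.10 to 0.85, limma adjusted p = 0.416). Without replicate 1 it was 0.59 (limma adjusted p = 0.0670), and with sample weights it was 0.56 and passed (limma adjusted p = 0.0209). Sample weights called 1240 of all 13413 tested genes.

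Art2b, the ADP-ribosyltransferase of T cells, was at 8.58, 12.2 and 14.1 FPKM in WT and 1.66, 5.51 and 5.97 in deficient libraries. Each deficient library was below each WT library, as in 10.4% of all tested genes. Art2b did not pass (log2 fold change -1.33, SE 0.405, limma adjusted p = 0.222), and reads of its close copy Art2a may be counted in it. Cd38 relative to Art2b was at 0.555, 0.337 and 0.329 in WT and 2.61, 1.35 and 1.18 in deficient libraries, so Art2b was the higher of the pair in WT and Cd38 in the deficient libraries. Bst1, the paralogue that lies 24.6 kb from Cd38, was at 3.69, 1.05 and 1.83 FPKM in WT and 0.773, 2.16 and 4.08 in deficient libraries. Bst1, also known from myeloid cells, was highest in WT replicate 1 and deficient replicate 3 and lowest in deficient replicate 1, as was the macrophage and monocyte sum, whereas Cd38 was highest in deficient replicate 2 and lowest in WT replicate 2. The part of macrophage RNA in these values was not tested, and Bst1 was chosen after its values were seen.

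**Figure D3:**
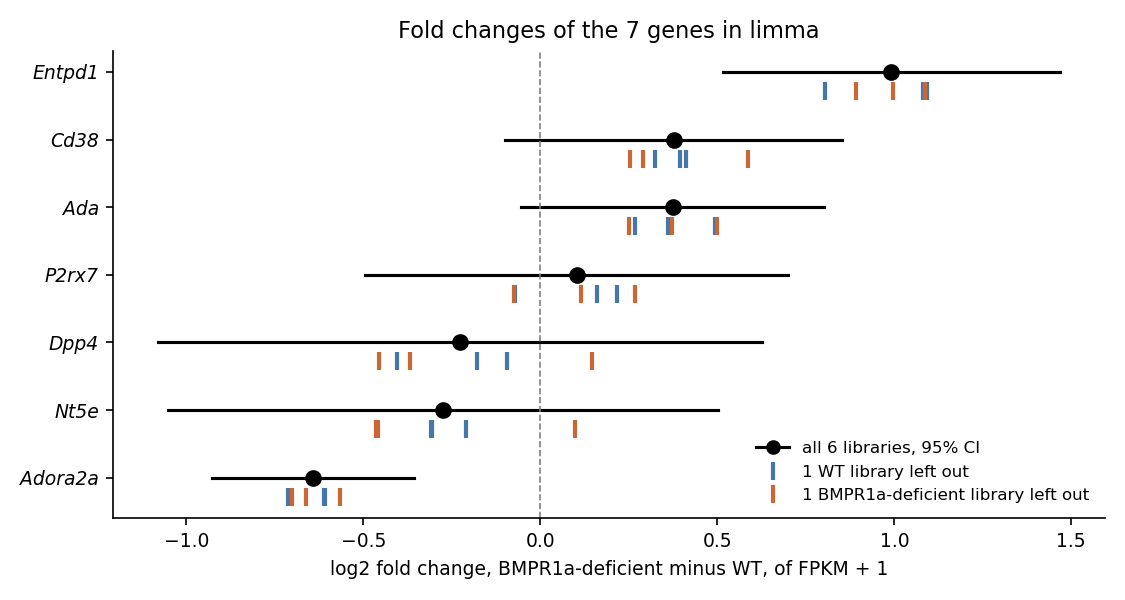
Log2 fold change of each gene, BMPR1a-deficient minus WT, on the log2(FPKM + 1) scale (black point) with the 95% confidence interval of limma (line) and the value with each library left out (ticks). The intervals of Entpd1 (0.52 to 1.47) and Adora2a (-0.93 to -0.36) keep clear of 0, and the ticks of Nt5e, Dpp4 and P2rx7 fall on both sides of it.

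The order of the 7 levels in WT was Nt5e (24.2 FPKM), Entpd1 (17.2), Dpp4 (12.6), Adora2a (8.56), Ada (6.25), Cd38 (4.50) and P2rx7 (1.35). Each neighbour in that order was separated in all 3 WT libraries except Entpd1 and Dpp4, whose ranges overlapped. In BMPR1a-deficient aTreg the order was Entpd1 (34.7), Nt5e (21.1), Dpp4 (11.2), Ada (8.40), Cd38 (6.27), Adora2a (5.12) and P2rx7 (1.54). Here only the top pair and the bottom pair had ranges that did not overlap. Adora2a was above Ada in all 3 WT libraries and below it in all 3 deficient libraries. Over replicates the coefficient of variation in WT was 7.80% for Cd38, 8.27% for Nt5e and 9.05% for Adora2a, and 34.8% for P2rx7. In deficient libraries it was 11.3% for Adora2a and 13.98% for Entpd1, and 39.8% for Nt5e and 42.0% for Dpp4.

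When each library was left out, Entpd1 stayed above and Adora2a below without overlap in all 6 cases. This was fixed beforehand, since the groups did not overlap with all 6 libraries and leaving 1 out cannot create overlap. In these cases 18.4% to 28.1% of all tested genes lay above and 12.8% to 15.6% below without overlap. Without deficient replicate 1 Cd38 also lay above without overlap, as 28.1% of all tested genes then did upward and 13.8% downward. Ada did so without WT replicate 2, where 26.4% of all tested genes did upward, and without deficient replicate 2, where 18.9% did.

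The wider purine machinery was described with 10 lists of 80 entries, 76 of them in the table and 49 tested. Of the 42 tested genes that are not among the 7, 1 was called higher (Pde4a) and 0 lower. At an unadjusted p under 0.05, 2 of these 42 were higher and 12 lower, against 9.29% and 5.87% of all tested genes. The groups did not overlap in 3 upward and 13 downward, against 15.9% and 10.4%. Their median log2 fold change was -0.07, with 15 positive and 27 negative, against 0.04 over all genes tested. These counts are a description of the lists and no test of them.

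The nucleoside transporter genes Slc29a1 and Slc28a2 lay in opposite directions. Slc29a1, the equilibrative transporter ENT1, was at 35.4, 43.9 and 44.9 FPKM in WT and 59.4, 59.0 and 57.4 in the deficient libraries (log2 fold change 0.50, limma adjusted p = 0.142). Slc28a2, a sodium-coupled purine nucleoside transporter, was at 51.4, 61.5 and 85.9 FPKM in WT and 29.2, 48.1 and 44.0 in deficient libraries (-0.70, limma adjusted p = 0.304). The groups overlapped in neither gene, and neither passed. Ahcy, which releases adenosine from S-adenosylhomocysteine, was at 56.2 ± 13.9 and 66.1 ± 12.4 FPKM (SD, n = 3, limma adjusted p = 0.604). Slc29a1 and Slc29a3 were picked after their values were seen.

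Genes for ATP release and for the answer to ATP were measured alongside. Panx1, the channel through which T cells release ATP, had a mean of 58.9 ± 11.2 FPKM in WT and 51.4 ± 6.09 in the deficient group (SD, n = 3, limma adjusted p = 0.624). Slc17a9, which loads ATP into vesicles, was at 24.3 ± 2.08 and 20.1 ± 1.35 (limma adjusted p = 0.324). P2ry10, a receptor of lysophosphatidylserine despite its name, was at 108, 138 and 128 FPKM in WT and 53.0, 94.5 and 102 in deficient libraries (limma adjusted p = 0.346). P2ry14, which senses UDP-sugars, was at 1.61, 1.29 and 1.36 and 0.367, 0.581 and 0.882 FPKM (limma adjusted p = 0.194). The inflammasome adaptor Pycard was at 70.6 ± 4.53 and 87.7 ± 41.3 (limma adjusted p = 0.748). The cytosolic relatives of CD26, Dpp8 and Dpp9, were at 33.3 ± 1.60 and 28.6 ± 4.92 and at 21.2 ± 1.43 and 21.1 ± 2.23 FPKM (limma adjusted p = 0.494 and 0.967).

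**Figure D4:**
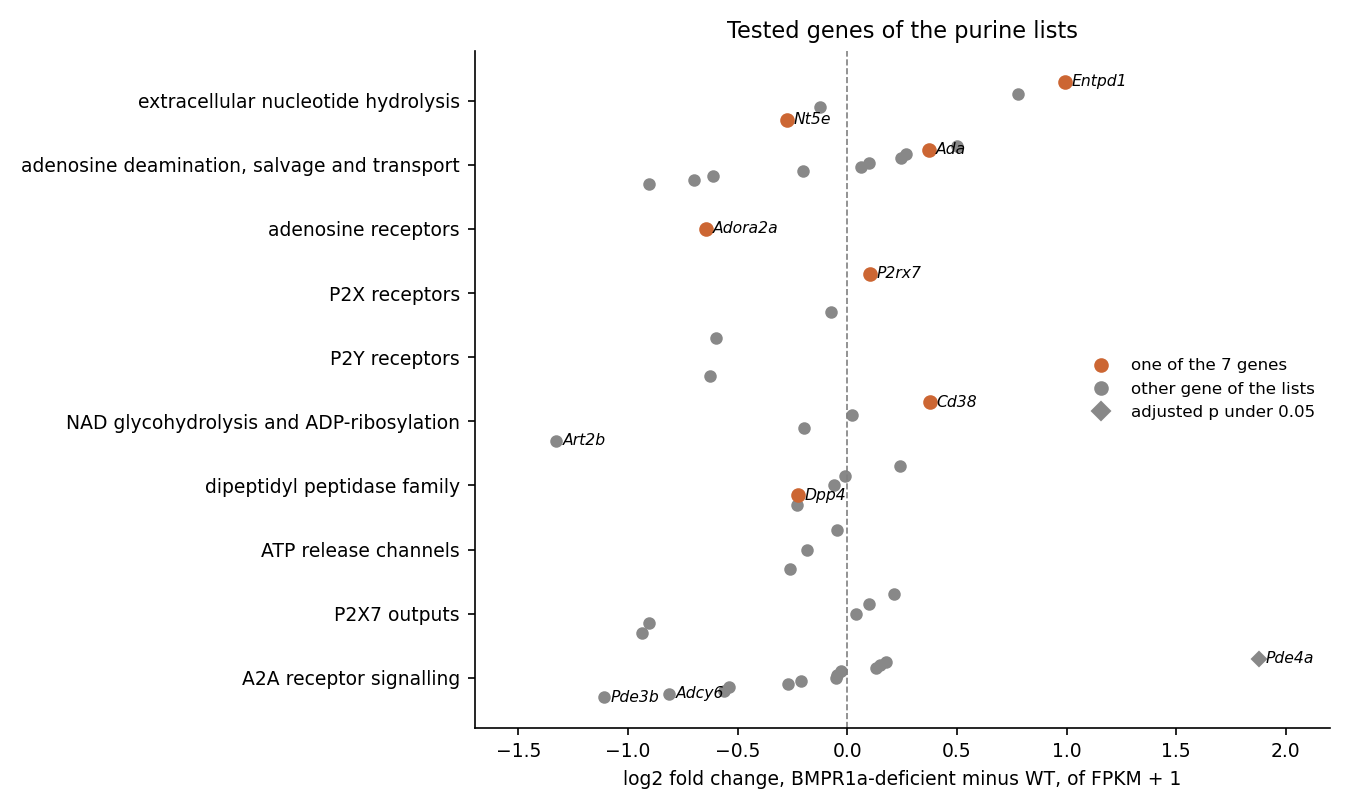
Log2 fold change, BMPR1a-deficient minus WT, of the 49 tested genes of the purine lists, one row per list, with the 7 genes in orange and the other genes in grey. Pde4a at 1.88 is the only diamond, the mark for an adjusted p under 0.05, and Art2b at -1.33 lies farthest to the left.

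The genes most alike in pattern were found by Pearson r of log2(FPKM + 1) over the 6 libraries, with the closest pair named for each gene. Predicted, clone-named, mitochondrial, small RNA, unnamed and joined symbols were left out of the naming, but not of the counts below. For Entpd1 they were Fam118b (r = 0.995) and Cd99l2 (0.993), for Adora2a Arhgap29 (0.998) and Icam2 (0.996), and for Ada R3hcc1 (0.994) and Ccdc50 (0.993). For Dpp4 they were Nipbl (0.996) and Nr1d2 (0.995), and for Cd38 the T cell receptor segment Trav15n-1 (0.991) and Dusp10 (0.987). For P2rx7 both were immunoglobulin kappa segments, Igkv8-27 (0.997) and Igkv12-46 (0.993). For Nt5e they were Gsta4 (0.992) and the short joining segment Traj4 (0.989), whose FPKM is unreliable. With 6 libraries such values are common: an r above 0.95 was shared by 199 tested genes with Dpp4, 184 with Adora2a, 106 with Entpd1, 97 with Ada, 68 with Cd38, 24 with P2rx7 and 6 with Nt5e.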

How the data were processed

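The authors deposited 1 table of FPKM, a column per library, with no counts. Per the submitters' processing notes, TopHat2, Cufflinks and Cuffdiff were used with GRCm38.p4, with versions, settings, strand handling, annotation and scaling between libraries not given in the sources used here. Unstranded counting could add reads of overlapping genes. Symbols and positions came from GENCODE M21 (GRCm38), which matched 96.6% of identifiers, and 0 columns were left unmapped. For genes averaging at least 1 FPKM over the 6 libraries, log2(FPKM + 1) went into limma 3.58.1 (R 4.3.3; eBayes with trend, two-sided), with Benjamini-Hochberg adjustment over all 13413 genes. Fold changes on this scale understate those of low genes. The test was checked on simulated data. Exact permutation tests used SciPy 1.17.1. Depth was estimated from the densest low FPKM times length in 4166 genes, ignoring effective length, and is approximate. The 17 other settings varied pseudocount, filter, scaling, eBayes, sample weights, replicate block and each library left out; overlap without each library was added after seeing the data. Unless said otherwise beside them, named genes are the 7, Bmpr1a, called genes of each purine list or else its 2 most abundant, and the 2 most alike per gene. Genes and lists were chosen with earlier results of these data known. One gene that this rule names is not reported here.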

Additional observations from a re-analysis of the deposited data

How the results depend on the processing

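Of the 7 genes, Ada kept its direction and its side of the threshold in all 17 alternatives, and Entpd1 and Adora2a kept their direction in all 17. Entpd1 passed with sample weights only (log2 fold change 1.15), its adjusted p in limma lying between 0.0159 and 0.283 over the alternatives. Adora2a passed with median-of-ratios scaling (-0.67), quantile normalization (-0.67) and sample weights (-0.57), with adjusted p between 0.0148 and 0.324. Sample weights also brought Cd38 past the threshold (0.56) and turned Dpp4 to 0.062. The count of the 7 genes called was then 2 higher and 1 lower with sample weights and 0 higher and 1 lower with median-of-ratios scaling or quantile normalization. Over all 13413 tested genes, sample weights called 833 higher and 407 lower, against 100 and 43 in the main setting. Median-of-ratios scaling called 85 and 56 of them, and quantile normalization 88 and 70. Leaving out single libraries turned 3 genes: the fold change ranged from -0.46 to 0.10 for Nt5e, from -0.45 to 0.15 (0.145) for Dpp4 and from -0.076 to 0.27 for P2rx7 (-0.0717 without WT replicate 1), and the number of the 7 genes called stayed at 0 in both directions. The number of the 7 lying above without overlap ranged from 1 to 2 in those cases, where 18.4% to 28.1% of all tested genes did, and P2rx7 and Pde4a were not tested at a mean of at least 5 FPKM.

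In the purine lists, the 1 higher call was lost (0 called) without the filter and with upper-quartile scaling, median-of-ratios scaling, quantile normalization or the replicate block, and with the filter at 5 FPKM, which leaves Pde4a out, 0 were called. It became 5 higher and 5 lower with sample weights, 1 lower was called with median-of-ratios scaling and 2 lower with quantile normalization. With a library left out 0 to 1 were higher. Among named genes outside the 7, P2rx4 turned to 0.0105, Dpp9 to 0.0807 and Pycard to -0.0922 with sample weights. With a library left out, P2rx4 ranged from -0.1333 to 0.0354, Dpp9 from -0.0716 to 0.0722 and Pycard from -0.1423 to 0.4395. The cause of these turns was not tested. Over all genes, the counts were 833 higher and 407 lower with sample weights and 27 lower with the filter at 5 FPKM, 70 lower with quantile normalization, and between 10 and 134 higher and between 4 and 76 lower with a library left out. The replicate block, which uses the numbers of the titles, left 5 higher and 5 lower of all genes and 0 of the 7. Same-numbered libraries deviated together only weakly (r = 0.0103, 0.0645 and 0.0518 across genes), and WT replicate 1 correlated better with deficient replicate 3 (r = 0.0412), so the numbers were not taken as pairs. FPKM without counts leave the counting error of low genes such as P2rx7 unmeasured.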

Other observations

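The low Nt5e value of BMPR1a-deficient replicate 3 had company on its chromosome. Among 10362 tested protein-coding genes, 6 were in that library at or below 50% of the lowest level in any of the other 5 libraries, counting only genes above 1 FPKM in those. Of these 6, 4 lie on chromosome 9 between 72438011 and 88372092 (GRCm38), a stretch of 15.9 Mb that holds 49 of the tested protein-coding genes, or 0.473% of them. In order along the chromosome they are Mns1, Gsta4, Myo6 and Nt5e. The stretch was drawn from the first to the last of these genes, so its share is small by construction. Chromosome 9 as a whole holds 566 of the 10362 genes. Nt5e, at 49.5%, lay just under the limit of 50%. Gsta4, a glutathione transferase gene, was at 3.30, 2.64 and 3.65 FPKM in WT and 3.98, 4.09 and 0.159 in the deficient libraries. Mns1, which encodes a structural protein of cilia and sperm tails, was at 19.6, 19.6 and 14.4 FPKM in WT and 16.3, 10.8 and 2.77 in the deficient libraries. Myo6, a motor protein gene, was at 2.16, 4.78 and 4.26 FPKM and 4.71, 3.41 and 0.849. The remaining 2 genes of the 6 are predicted genes on chromosomes 11 and X. By the same measure 192 genes were low in deficient replicate 1, with 2 of them on chromosome 9, and 1 to 8 genes in each other library, with at most 1 on chromosome 9. Acpp, an AMP-cleaving phosphatase gene on chromosome 9 outside that stretch, was at 9.81, 6.56 and 8.09 FPKM in WT and 8.59, 13.9 and 25.2 in deficient libraries, highest where Nt5e was lowest, and was picked after its values were seen. This stretch was noticed in the data and not fixed beforehand, and its cause was not tested. The labels give C57BL/6 for every library. The Nt5e fold change of -0.28 rests on that library and was 0.10 without it.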
